A study of Mus musculus with 24 samples.

Results

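Interferon response genes are genes whose transcription rises when cells sense interferon, the secreted signal of antiviral defence. Here 39 of them were followed in mouse liver, picked by gene name from the 14995 genes of the deposited count table. All 39 have a row in that table, and 35 had enough counts to be tested. Oas1a, Oas2, Gbp6 and Tgtp1 fell under the low-count filter. The study comes from obese mice and has 3 groups of 8 liver libraries each, all collected 20 weeks after surgery. RYGB livers came from mice given Roux-en-Y gastric bypass, a bariatric operation that leaves a small gastric pouch joined to the jejunum. WM livers came from mice held at the body weight of the RYGB mice by calorie restriction, and the labels do not say whether these mice also had an operation. Sham livers came from mice given a sham operation. Strain, sex, age and diet were not given in the sources used here, and no genetic change or drug is named for any group.

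Type I interferons bind the receptor made of Ifnar1 and Ifnar2, and its kinases activate a complex that contains Stat2 and Irf9 and binds interferon-stimulated response elements (ISREs) in the promoters of target genes. Interferon gamma uses a separate receptor, Ifngr1 and Ifngr2, and acts on gamma-activated sites (GAS) and through Irf1. In liver, both hepatocytes and resident macrophages, the Kupffer cells, respond to interferon.

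The promoters show what many of the genes share apart from their name. RefSeq promoter windows on GRCm38.p6, from 250 bases before to 50 after each gene's start, were found for 29 of the 39 genes. The core letters of an ISRE, TTTC followed by any 2 bases and TTTC again, searched on both strands, stand in 17 of these 29 (58.6%), against 3.99% of all genes with a window. The letters TTCNNNGAA, searched as a GAS on both strands, stand in 9 of the 29 (31%), against 9.55% of all genes. A match describes the letters and does not show that a factor binds. The 5 stretches below hold the 150 bases before the start of genes whose levels are described further on, with the ISRE letters in capitals. They are written 5′ to 3′ on the gene's own strand. Ifit1 and Rsad2 stand for the antiviral effectors, Isg15 for the ubiquitin-like modifiers, Gbp3 for the guanylate-binding proteins and Igtp for the immunity-related GTPases.
Ifit1 (chr19:34640739-34640888, plus strand): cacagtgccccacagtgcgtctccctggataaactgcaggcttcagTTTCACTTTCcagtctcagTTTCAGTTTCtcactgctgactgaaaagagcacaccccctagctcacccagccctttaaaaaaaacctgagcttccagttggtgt
Rsad2 (chr12:26456453-26456602, minus strand): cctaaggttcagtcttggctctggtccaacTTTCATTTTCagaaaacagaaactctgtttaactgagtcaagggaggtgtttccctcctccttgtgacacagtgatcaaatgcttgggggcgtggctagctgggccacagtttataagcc
Isg15 (chr4:156200819-156200968, minus strand): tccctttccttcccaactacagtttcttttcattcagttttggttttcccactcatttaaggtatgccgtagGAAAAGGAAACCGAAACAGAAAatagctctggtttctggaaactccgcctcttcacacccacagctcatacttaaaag
Gbp3 (chr3:142559894-142560043, plus strand): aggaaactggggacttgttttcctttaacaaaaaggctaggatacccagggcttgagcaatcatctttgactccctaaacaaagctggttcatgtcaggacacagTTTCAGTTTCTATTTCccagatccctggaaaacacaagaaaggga
Igtp (chr11:58199406-58199555, plus strand): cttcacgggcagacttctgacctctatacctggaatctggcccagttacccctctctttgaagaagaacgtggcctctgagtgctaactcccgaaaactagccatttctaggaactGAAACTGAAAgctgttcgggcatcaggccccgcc
Ifit1 and Gbp3 each hold 2 matches within these stretches, those of Gbp3 overlapping, Isg15 holds 3 that overlap, and Rsad2 and Igtp hold 1 each. In Isg15 and Igtp the matches are on the opposite strand, so the capitals show the reverse complement of the letters searched. Igtp also has a GAS match, left in lower case, that starts at position -45 from the gene's start. Dhx58, Gbp6, Ifi27, Iigp1, Oas2, Parp14, Parp9, Rtp4, Usp18 and Zbp1 were not searched here.

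The libraries held 13659647 to 22766612 counted reads each. Levels are given as CPM, reads per 1000000 reads of a TMM-scaled library, and always as the lowest, the median and the highest library of a group unless stated otherwise. All 10 hepatocyte markers were detected, with sums of 86769 to 145686 CPM in RYGB, 78722 to 139008 CPM in WM and 35584.5 to 79221 CPM in Sham libraries. RYGB 18, RYGB 19 and Sham 17 also carried pancreatic acinar transcripts, with summed marker levels of 3252, 3375 and 1485 CPM against 188 CPM or less in every other library.

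1 library stands apart in the interferon genes. WM 13 was the highest of all 24 libraries for 29 of the 35 tested genes (82.9%), while it was the highest for 3.48% of all 13121 tested genes. It was the highest WM library for 33 of the 35. It exceeded 2 times the median of the other 7 WM libraries for 31 of the 35, against a background of 7.5% of all tested genes, with a median ratio of 5.02 and a range of 1.13 to 26.5. Iigp1, an immunity-related GTPase that attacks the vacuoles of intracellular parasites, had 3200.1 CPM in WM 13 and 129.6, 329 and 723 CPM in the other 7 WM livers, against 294, 371 and 457 CPM in Sham livers. Members called in WM livers are therefore given with and without this library, and other genes named as called in WM livers were also called without it unless stated.

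Members varied more within the WM group than within the others. The median coefficient of variation over the 35 genes was 30.8% in RYGB, 97.8% in WM and 25.3% in Sham livers. The same median over all tested genes was 34.0% in RYGB, 39.2% in WM and 30.0% in Sham livers. In the WM group 16 of the 35 genes had a coefficient above 100%, in the RYGB and Sham groups none had, and over the 7 WM libraries without WM 13 the median was 36.7%. Summarised per library as the median log2 difference from the Sham mean, the 35 genes stood at 1.58 in WM 13 and between -0.90 and 0.15 in the other WM libraries. RYGB libraries lay between -0.90 and -0.15 on that scale, so every RYGB library was below 0, and Sham libraries lay between -0.18 and 0.17.

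**Figure D1:**
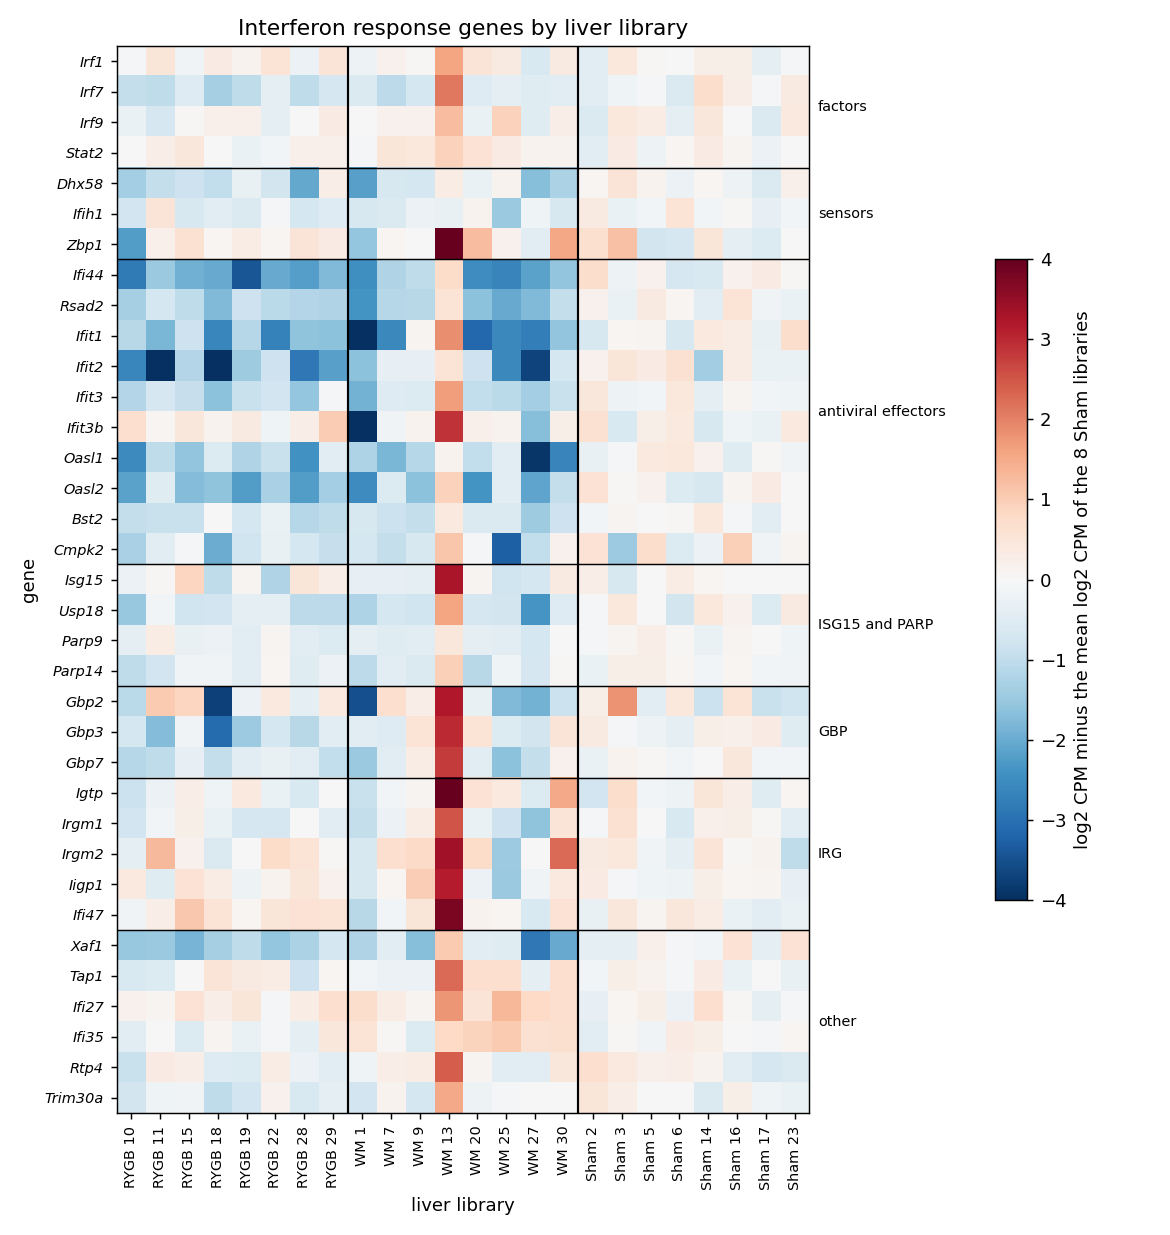
Each row is one of the 35 tested genes, ordered by role, and each column a liver library, RYGB then WM then Sham. Colour is log2 CPM minus the mean log2 CPM of the 8 Sham libraries, limited to -4 and 4. The WM 13 column is red in almost every row (highest of 24 libraries for 29 genes), while the antiviral effectors are mostly blue in the RYGB columns and in the other WM columns.

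In RYGB against Sham livers no member rose and 8 of 35 fell by edgeR's quasi-likelihood test with Benjamini-Hochberg adjustment over all tested genes, where 11% of all tested genes were called lower and 12.7% higher. In what follows, called means past this edgeR test unless another tool is named. Of the other tools, DESeq2 replaced the WM 13 count of 6 members as an outlier, so its values with all libraries may not include that count. Quality weights per library were used in limma-voom, so its libraries did not count equally. The 8 genes called lower in RYGB were Rsad2, Ifi44, Ifit1, Ifit2, Oasl1, Oasl2, Bst2 and Xaf1. No member was called higher at an unadjusted p under 0.05 either, and DESeq2, limma-voom and limma-trend also gave 0. The median log2 fold change was -0.36 over the 35 genes and -0.015 over all tested genes, and 27 of the 35 were below 0. For 5 genes, Ifi44, Rsad2, Ifit1, Xaf1 and Gbp7, no RYGB library reached the lowest Sham library, against 2.1% of all tested genes, and for none were all RYGB libraries above all Sham libraries, against 3.28%. Leaving out WM 13, which enters here through the low-count filter, the scaling and the shared estimate of the spread, gave 13 lower calls against a background of 10.9%. The 5 added calls were Irf7, Gbp3, Gbp7, Usp18 and Ifit3. With only the RYGB and Sham libraries these 5 were also called lower (edgeR adjusted p = 0.00150, 0.0209, 0.00394, 0.0152 and 0.00223 in that order).

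In WM against Sham livers 6 of 35 genes rose (background 16.5% of all tested genes) and 4 fell (background 15%). Those higher were Ifi35, Zbp1, Ifi27, Irgm2, Igtp and Ifi47, and those lower were Rsad2, Ifi44, Oasl1 and Bst2. Without WM 13 only Ifi35 and Ifi27 were still called higher (background 15.5%), and 12 genes were called lower (background 13.5%): Rsad2, Ifi44, Oasl1, Oasl2, Bst2, Ifit1, Ifit3, Irf7, Usp18, Parp9, Parp14 and Xaf1. The median log2 fold change was 0.30 with WM 13 and -0.40 without it, so the sign of the summary rested on that library. No member had all WM libraries below all Sham libraries (background 2.68%) or above them (background 3.15%). Both comparisons use the same 8 Sham libraries, so that their values are set side by side below and not counted as independent.

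In RYGB against WM livers 2 genes were lower, Gbp3 and Igtp (background 0.434%), and none was higher (background 1.06%; none at an unadjusted p under 0.05). Without WM 13 edgeR called none in either direction (backgrounds 0.505% lower and 1.04% higher), with 2 genes lower and 0 higher at an unadjusted p under 0.05. The median log2 fold change was -0.71 with that library and -0.055 without it. No member had all RYGB libraries below all WM libraries (background 0.0762%) or above them (background 0.282%).

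**Figure D2:**
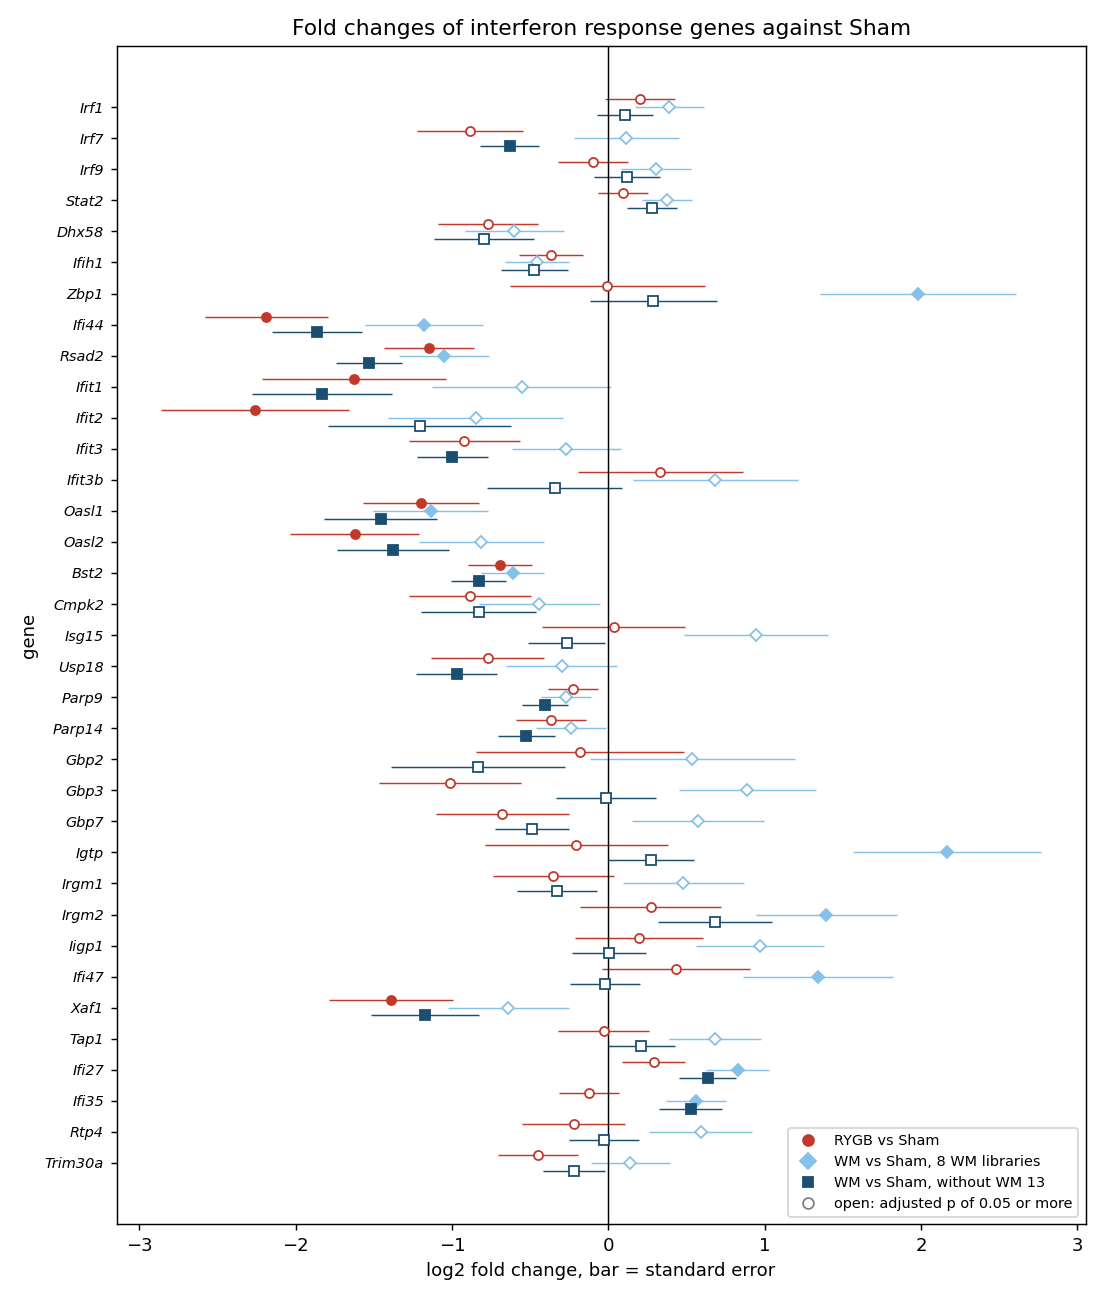
Log2 fold changes (x axis) of the 35 tested genes (y axis, ordered by role), with bars for the standard error. RYGB vs Sham is shown as red circles, WM vs Sham with all 8 WM libraries as pale diamonds and WM vs Sham without WM 13 as dark squares; filled symbols mark an adjusted p under 0.05. The dark squares lie left of the pale diamonds for all 35 genes, as for Igtp (2.17 with WM 13 and 0.27 without). WM 13 was the highest WM library for 33 of the 35, so for those the direction of the shift follows from leaving it out.

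None of the 4 transcription factors among the members was called with all 24 libraries, though Irf7 passed with other tools and other edgeR settings. The backgrounds were 12.7% higher and 11% lower in RYGB and 16.5% and 15% in WM against Sham. Irf7, which amplifies interferon production, had 10.7, 13.5 and 20.7 CPM in RYGB livers, 12.8, 19.0 and 115 CPM in WM livers and 17.9, 25.5 and 43.9 CPM in Sham livers. All 8 RYGB libraries lay below the Sham median, though the groups overlapped. Its log2 fold change in RYGB against Sham was -0.88 ± 0.34 (SE; edgeR adjusted p = 0.0578), and the adjusted p was 0.000775 without WM 13, 0.0489 without Sham 2 and 0.0499 without RYGB 22. With all 24 libraries Irf7 was lower in RYGB by DESeq2 (adjusted p = 0.0350), limma-voom (0.00891), limma-trend (0.0295), edgeR on library totals (0.0118) and edgeR with a correction for GC content and length (0.0220). In WM against Sham it was 0.12 ± 0.34 (edgeR adjusted p = 0.821) with WM 13, a library at 115 CPM, and -0.63 ± 0.19 (adjusted p = 0.0125) without it.

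Stat2 and Irf9, members of the type I complex, were not called by edgeR. Stat2 had 10.3, 13.4 and 17.0 CPM in RYGB, 11.9, 15.8 and 23.2 CPM in WM and 8.93, 12.8 and 15.5 CPM in Sham livers, with log2 fold changes of 0.10 ± 0.16 in RYGB and 0.37 ± 0.16 in WM against Sham (edgeR adjusted p = 0.708 and 0.0746). The WM value passed with 0.43 (adjusted p = 0.0487) without Sham 3 and likewise without WM 1. Irf9 had 24.3, 39.9 and 48.9 CPM in RYGB, 27.8, 44.3 and 92.1 CPM in WM and 26.0, 43.5 and 54.0 CPM in Sham livers, and the 3 groups overlapped, with log2 fold changes of -0.10 ± 0.22 in RYGB and 0.30 ± 0.22 in WM against Sham (adjusted p = 0.798 and 0.314). Irf1, the factor most tied to interferon gamma, had 47.8, 65.1 and 81.4 CPM in RYGB, 36.2, 66.9 and 167 CPM in WM and 40.7, 56.6 and 74.7 CPM in Sham livers, and only WM 13 exceeded 100 CPM. The signs of Stat2 and Irf1 in RYGB against Sham, 0.10 ± 0.16 and 0.20 ± 0.22, turned to -0.24 and -0.12 when library totals replaced TMM scaling.

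Of the 3 nucleic acid sensors, none was called in RYGB against Sham (background 12.7% higher and 11% lower). In WM against Sham 1 was called higher (background 16.5%) and none lower (background 15%). Zbp1, a sensor of Z-form nucleic acid that can trigger cell death, had 0.485, 2.98 and 3.83 CPM in RYGB livers, 0.810, 2.73 and 63.9 CPM in WM livers and 1.48, 2.20 and 5.73 CPM in Sham livers. The top WM value was that of WM 13, and the other 7 WM livers did not pass 7.32 CPM. The WM against Sham log2 fold change was 1.98 ± 0.63 (edgeR adjusted p = 0.0162) with WM 13 and 0.29 ± 0.40 (adjusted p = 0.627) without it. It was also not called by DESeq2 (0.25, adjusted p = 0.663, near the value without WM 13), limma-voom (1.03, 0.149) or limma-trend (0.70, 0.349). Dhx58 and Ifih1, which bind viral RNA in the cytoplasm, had log2 fold changes of -0.77 ± 0.32 and -0.36 ± 0.20 in RYGB against Sham (edgeR adjusted p = 0.0774 and 0.204) and of -0.60 ± 0.32 and -0.45 ± 0.20 in WM against Sham (adjusted p = 0.148 and 0.0906).

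The antiviral effectors held most of the lower calls. In RYGB against Sham 7 of the 10 tested effectors fell and none rose, with a median log2 fold change of -1.17, where 11% of all tested genes were called lower. In WM against Sham 4 of 10 fell with WM 13 (15% of all tested genes) and 7 of 10 without it (13.5%), with medians of -0.71 and -1.29. No effector was called in RYGB against WM (background 0.434% lower and 1.06% higher).

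Rsad2 (viperin), a radical-SAM enzyme that makes a chain-terminating nucleotide, had 10.5, 16.3 and 21.7 CPM in RYGB livers, 6.73, 13.7 and 52.1 CPM in WM livers and 26.0, 34.96 and 51.6 CPM in Sham livers. Every RYGB library lay below every Sham library, as did all WM libraries but WM 13. Its log2 fold change was -1.15 ± 0.29 in RYGB (edgeR adjusted p = 0.00450) and -1.05 ± 0.29 in WM (adjusted p = 0.00623), or -1.53 ± 0.21 in WM without WM 13. The WM call was lost with the GC and length correction (-0.64, adjusted p = 0.0849). Its neighbour on chromosome 12, Cmpk2, which supplies the nucleotide precursor, had 1.38, 3.33 and 5.47 CPM in RYGB, 0.529, 3.48 and 12.2 CPM in WM and 1.99, 5.61 and 11.0 CPM in Sham livers and was not called in RYGB (-0.88 ± 0.39, edgeR adjusted p = 0.101) or in WM (-0.44 ± 0.39, adjusted p = 0.407).

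Ifi44, a cytoplasmic protein that restrains viral growth, had 1.92, 5.24 and 7.53 CPM in RYGB livers, 3.40, 6.01 and 35.8 CPM in WM livers and 13.5, 23.0 and 34.99 CPM in Sham livers. The RYGB and Sham ranges did not meet, and among WM livers WM 13, at 35.8 CPM, lay above all Sham libraries and the other 7 below all of them. The log2 fold change of -2.19 ± 0.39 in RYGB (edgeR adjusted p = 0.000165) stood beside -1.18 ± 0.38 in WM (adjusted p = 0.0179), or -1.86 ± 0.29 in WM without WM 13 (adjusted p = 2.16e-05). The RYGB against WM difference of -1.01 ± 0.38 was not called (adjusted p = 0.262), and it was -0.32 ± 0.28 without WM 13.

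The Ifit genes, which bind foreign RNA caps and ends, lie side by side on chromosome 19. Ifit1 had 2.86, 6.13 and 10.6 CPM in RYGB livers, 0.648, 3.16 and 69.5 CPM in WM livers and 12.3, 20.3 and 31.0 CPM in Sham livers. RYGB and Sham did not overlap, while WM spanned both, and its log2 fold change in RYGB was -1.63 ± 0.59 (edgeR adjusted p = 0.0437). That call was narrow: leaving out any 1 of RYGB 11, 18, 19, 22, 28 and 29 or Sham 3, 5, 14, 16, 17 and 23 gave an adjusted p of 0.0519 to 0.0754, and leaving out the 3 libraries with pancreatic transcripts gave 0.104. It was 0.0770 with the GC and length correction and 0.0634 with a minimum fold of 1.2. Leaving out WM 13 gave 0.00603. In WM the value was -0.55 ± 0.57 (adjusted p = 0.490) with WM 13 and -1.83 ± 0.45 (adjusted p = 0.00284) without it, and with all libraries limma-voom and limma-trend called it lower (-1.88 and -1.93).

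Ifit2 was low throughout, with 0, 0.266 and 0.890 CPM in RYGB livers, 0.0692, 0.938 and 2.44 CPM in WM livers and 0.593, 1.94 and 2.52 CPM in Sham livers. All 8 RYGB libraries lay under the Sham median, and the log2 fold changes were -2.26 ± 0.60 in RYGB (edgeR adjusted p = 0.00667) and -0.85 ± 0.56 in WM (adjusted p = 0.257, or 0.122 without WM 13). Ifit3 had 5.06, 8.40 and 14.8 CPM in RYGB livers, 4.21, 8.26 and 50.4 CPM in WM livers and 12.3, 14.7 and 21.5 CPM in Sham livers. It was not called by edgeR in RYGB (-0.92 ± 0.36, adjusted p = 0.0587). With all libraries DESeq2 (0.000379), limma-voom (0.00968), limma-trend (0.0241) and edgeR on library totals (0.0126) called it lower. It passed in edgeR without WM 13 (adjusted p = 0.00276), without WM 1 (0.0461) or without RYGB 29 (0.0341). In WM it stood at -0.27 ± 0.35 (adjusted p = 0.595) with WM 13 and -0.999 ± 0.23 (adjusted p = 0.00155) without it. DESeq2 called Ifit3 lower in WM (-0.945, adjusted p = 0.000233), with a value near that without WM 13. Its close copy Ifit3b had log2 fold changes of 0.33 ± 0.53 in RYGB, 0.68 ± 0.53 in WM and -0.34 ± 0.43 in WM without WM 13, and was not called by edgeR. Of the 50-base words in the last 500 bases of Ifit3 transcripts, 14.9% also occur in Ifit3b, so reads may be split between them.

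Oasl1 and Oasl2 are relatives of the 2′-5′ oligoadenylate synthetases. Oasl1, which in mouse limits the translation of Irf7, had 1.51, 4.19 and 6.82 CPM in RYGB livers, 0.553, 3.96 and 9.95 CPM in WM livers and 6.46, 8.96 and 12.1 CPM in Sham livers. All 8 RYGB libraries were under the Sham median. It was lower in both groups, with -1.19 ± 0.37 in RYGB (edgeR adjusted p = 0.0185) and -1.14 ± 0.37 in WM (adjusted p = 0.0196), or -1.46 ± 0.36 without WM 13 (adjusted p = 0.00337). Oasl2 had 0.702, 1.06 and 2.48 CPM in RYGB livers, 0.567, 1.44 and 6.63 CPM in WM livers and 2.22, 3.70 and 5.26 CPM in Sham livers. RYGB 11 and 3 WM libraries, WM 13 among them, lay above the lowest Sham library. It was -1.62 ± 0.41 in RYGB (adjusted p = 0.00499) and -0.81 ± 0.40 in WM (adjusted p = 0.123), or -1.38 ± 0.36 without WM 13 (adjusted p = 0.00492). With all libraries Oasl2 was lower in WM by limma-voom (0.0112), limma-trend (0.0178), library totals (0.0372) and the GC and length correction (0.0468).

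Bst2 (tetherin), which holds budding virions at the cell surface, had 30.5, 36.8 and 68.8 CPM in RYGB livers, 25.2, 41.0 and 88.6 CPM in WM livers and 50.8, 67.8 and 89.9 CPM in Sham livers. The groups overlapped, but 7 of 8 libraries in both RYGB and WM were under the Sham median. The log2 fold changes were -0.69 ± 0.20 in RYGB (edgeR adjusted p = 0.0135) and -0.61 ± 0.20 in WM (adjusted p = 0.0221), or -0.83 ± 0.18 without WM 13. With a minimum fold of 1.2 the WM call was lost (adjusted p = 0.0621).

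The remaining effectors were nearly silent. Oas1a reached at most 0.253 CPM in RYGB, 0.886 CPM in WM and 1.54 CPM in Sham livers, and Oas2 at most 0.884 CPM in RYGB, 1.05 CPM in WM and 0.918 CPM in Sham livers. These levels are a few reads per library (0 to 24 counts for either gene), and neither gene was tested. Oas1a also shares 56.1% of its 3′ words with Oas1g.

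**Figure D3:**
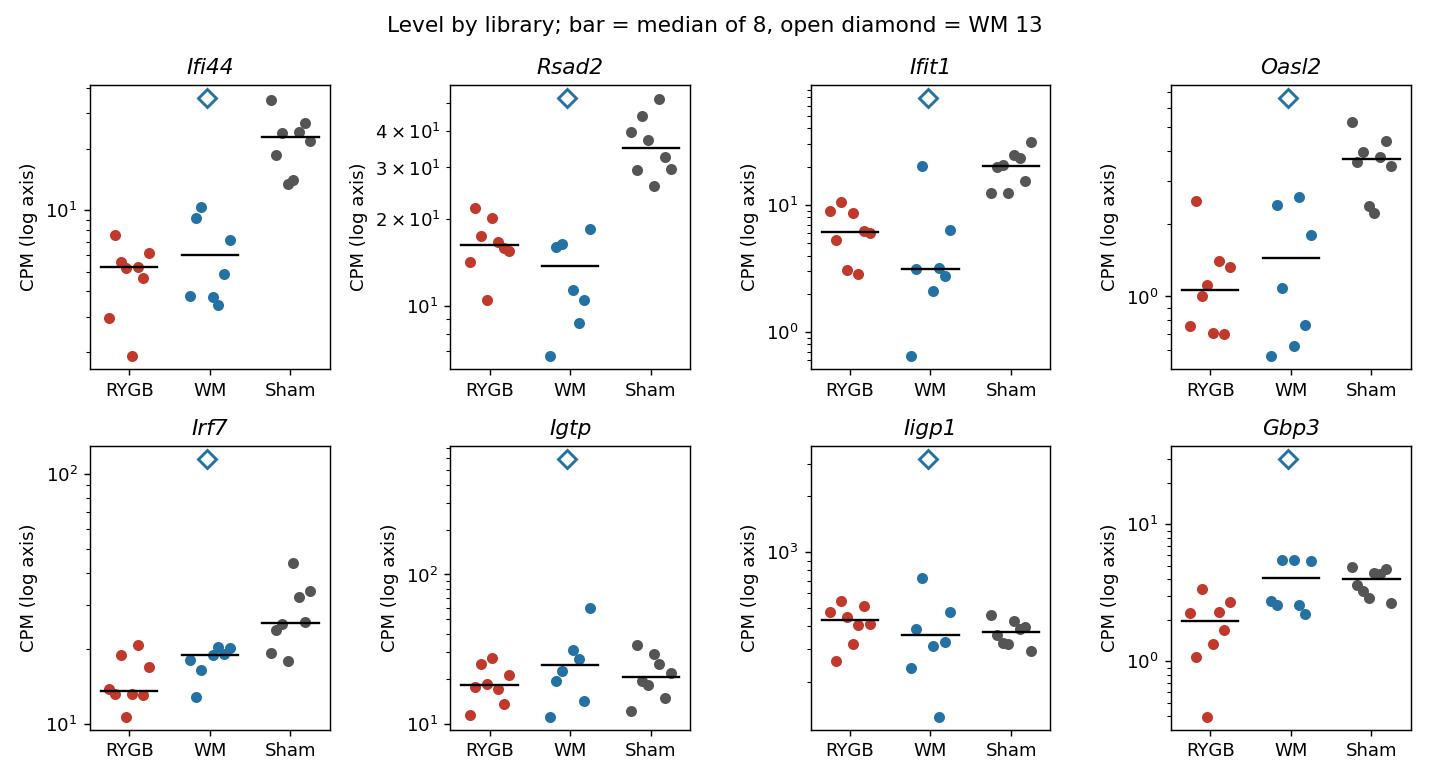
CPM on a log axis (y) of 8 genes in the RYGB, WM and Sham libraries (x); each point is a library, bars are medians of 8 and open diamonds mark WM 13. For Ifi44, Rsad2 and Ifit1 all RYGB points lie below all Sham points, and in every panel WM 13 is the highest point of all 24 libraries.

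Isg15, Usp18 and the Parp pair belong to protein modification systems. None of the 4 was called with all libraries, though some passed under other settings. The backgrounds were 12.7% higher and 11% lower in RYGB and 16.5% and 15% in WM against Sham. Without WM 13, 1 was called lower in RYGB (background 10.9%) and 3 in WM (background 13.5%). Isg15, the ubiquitin-like modifier itself, had 5.78, 14.1 and 24.5 CPM in RYGB livers, 7.64, 10.7 and 129 CPM in WM livers and 8.56, 13.6 and 16.3 CPM in Sham livers. RYGB spread on both sides of Sham, and WM 13 at 129 CPM was far above the other 7 WM livers, which did not pass 17.1 CPM. Usp18, which removes Isg15 and damps the type I receptor, had 2.37, 3.99 and 6.37 CPM in RYGB, 1.31, 4.19 and 20.8 CPM in WM and 4.15, 7.36 and 9.34 CPM in Sham livers. Without WM 13 Usp18 was lower in RYGB (-0.77 ± 0.25, edgeR adjusted p = 0.0236) and in WM (-0.97 ± 0.26, adjusted p = 0.00598); with it the adjusted p values were 0.122 and 0.557. With all libraries Usp18 was lower in RYGB by limma-voom (0.0142), library totals (0.0247) and the GC and length correction (0.0463). Parp9 and Parp14, members of the ADP-ribosyltransferase family encoded on chromosome 16, had WM against Sham log2 fold changes of -0.27 ± 0.16 and -0.24 ± 0.22 (adjusted p = 0.206 and 0.439). Without WM 13 these were -0.40 ± 0.15 and -0.52 ± 0.18 (adjusted p = 0.0416 and 0.0314). With all libraries Parp9 was called lower in WM on library totals (-0.58, edgeR adjusted p = 0.0135).

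The guanylate-binding proteins coat and break the vacuoles of intracellular pathogens and are typical targets of interferon gamma. Gbp3 had 0.395, 1.98 and 3.39 CPM in RYGB livers, 2.21, 4.07 and 30.1 CPM in WM livers and 2.65, 3.96 and 4.88 CPM in Sham livers. All 8 RYGB libraries lay under the Sham median, and RYGB and WM overlapped. Its RYGB against WM log2 fold change was -1.90 ± 0.46 (edgeR adjusted p = 0.0255) with WM 13 and -0.99 ± 0.33 (adjusted p = 0.152) without it, and the adjusted p was 0.0505 without RYGB 11. That call was also lost with limma-voom (0.148), limma-trend (0.0700), only the RYGB and WM libraries (0.0915) and without the pancreas libraries (0.104). Against Sham it was -1.01 ± 0.45 in RYGB (adjusted p = 0.106, or 0.0198 without WM 13) and 0.89 ± 0.44 in WM (adjusted p = 0.123, or 0.976 without WM 13). With all libraries it was lower in RYGB by library totals (0.0311) and limma-trend (0.0368). Gbp7 had 12.3, 17.3 and 22.3 CPM in RYGB livers, 8.85, 20.4 and 191 CPM in WM livers and 22.7, 26.3 and 37.6 CPM in Sham livers. All its RYGB libraries lay below all Sham libraries, yet the log2 fold change of -0.68 ± 0.43 had an edgeR adjusted p of 0.261, and of 0.0307 without WM 13. Gbp2 had 0.132, 2.67 and 5.21 CPM in RYGB, 0.162, 1.68 and 23.1 CPM in WM and 1.29, 2.36 and 8.69 CPM in Sham livers and was not called by edgeR. Gbp6, not tested, reached at most 0.269 CPM in RYGB, 1.22 CPM in WM and 0.708 CPM in Sham livers, and 88.9% of its 3′ words occur in other Gbp or predicted genes.

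The immunity-related GTPases, a rodent-rich family against intracellular parasites and bacteria, included the largest ratio of WM 13 to the median of the other WM livers. In WM against Sham 3 of the 5 tested genes rose with that library (edgeR, background 16.5%). None was called without it (background 15.5% higher and 13.5% lower), nor was any at an unadjusted p under 0.05. In RYGB against Sham none was called (background 12.7% higher and 11% lower). Igtp (Irgm3) had 11.5, 18.0 and 27.4 CPM in RYGB livers, 11.1, 24.8 and 599 CPM in WM livers and 12.2, 20.6 and 33.8 CPM in Sham livers. WM 13 at 599 CPM was 26.5 times the median of the other WM livers, whose highest value was 59.3 CPM, and the RYGB livers, the Sham livers and the other 7 WM livers overlapped.

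Igtp stood at 2.17 ± 0.60 in WM against Sham (edgeR adjusted p = 0.00702) and at 0.27 ± 0.28 (adjusted p = 0.488) without WM 13. DESeq2 (0.23, near the value without WM 13), limma-voom (0.66) and limma-trend (0.73) did not call it in WM. In RYGB against WM it was -2.37 ± 0.61 (adjusted p = 0.0394) and -0.48 ± 0.28 (adjusted p = 0.547) without WM 13. That RYGB against WM call was also lost without any 1 of RYGB 10, 11, 15, 18, 22, 28 and 29 (adjusted p = 0.0592 to 0.089), with DESeq2 (-0.44, 0.555), limma-voom (-0.90, 0.408), limma-trend (-0.93, 0.467), only the RYGB and WM libraries (0.120), a minimum fold of 1.2 (0.0629) and without the pancreas libraries (0.0934). Igtp overlaps Irgm2 on the same strand, so their reads may not be fully separate.

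Irgm2 had 7.76, 12.6 and 28.6 CPM in RYGB livers, 4.23, 19.2 and 120.1 CPM in WM livers and 5.78, 12.6 and 16.9 CPM in Sham livers, with WM against Sham at 1.40 ± 0.45 (edgeR adjusted p = 0.0191) and 0.68 ± 0.37 (adjusted p = 0.164) without WM 13. Irgm2 was not called with limma-trend (0.71, adjusted p = 0.219) or library totals (0.0605). Ifi47 (Irg47) had 17.7, 27.8 and 41.0 CPM in RYGB livers, 8.99, 21.2 and 267 CPM in WM livers and 14.3, 18.6 and 26.7 CPM in Sham livers. Only 1 RYGB library lay under its Sham median, and RYGB was not called (0.43 ± 0.47, adjusted p = 0.545). In WM it was 1.34 ± 0.48 (adjusted p = 0.0326) with WM 13 and -0.02 ± 0.22 without it, and the adjusted p was 0.0502 to 0.0568 without any 1 of Sham 2, 16, 17 and 23. DESeq2 (0.00120, near the value without WM 13), limma-voom (0.47) and limma-trend (0.397) did not call Ifi47. Nor did edgeR on library totals (adjusted p = 0.0682), with only the WM and Sham libraries (0.0618) or without the pancreas libraries (0.0674). Irgm1, which guards the cell's own membranes, had log2 fold changes of -0.35 ± 0.39 in RYGB and 0.48 ± 0.39 in WM, or -0.33 ± 0.26 in WM without WM 13. Iigp1 stood at 0.20 ± 0.41 in RYGB and 0.97 ± 0.41 in WM, or 0.0041 ± 0.24 in WM without WM 13; neither was called by edgeR. Tgtp1, not tested, had 6.83 CPM in WM 13 and at most 0.0403 CPM in the other WM livers, 0.251 CPM in RYGB and 1.29 CPM in Sham livers, and 80.8% of its 3′ words occur in Tgtp2 or a predicted gene.

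Ifi27 and Ifi35 were called higher in WM livers whether or not WM 13 was counted, though not under every setting. Ifi27, a small hydrophobic protein of organelle membranes, had 103, 134 and 176 CPM in RYGB livers, 118, 177 and 376 CPM in WM livers and 84.97, 109 and 175 CPM in Sham livers. No WM library was below the Sham median. It stood at 0.83 ± 0.20 in WM against Sham (edgeR adjusted p = 0.00256) and at 0.64 ± 0.18 without WM 13 (adjusted p = 0.00940). With all libraries the WM call was lost on library totals (0.51, edgeR adjusted p = 0.0540). In RYGB Ifi27 stood at 0.29 ± 0.20 (adjusted p = 0.312).

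Ifi35, a partner of Nmi, had 8.36, 11.1 and 17.1 CPM in RYGB livers, 8.43, 19.2 and 25.3 CPM in WM livers and 8.93, 12.6 and 15.4 CPM in Sham livers, and 7 of 8 WM libraries were above the Sham median. It stood at 0.56 ± 0.19 in WM (edgeR adjusted p = 0.0259) and 0.53 ± 0.20 without WM 13 (adjusted p = 0.0481). That call was lost without Sham 2 (0.0511), without WM 20 (0.0534) or without WM 25 (0.0542). It was also lost with library totals (0.22, adjusted p = 0.346), the GC and length correction (0.33, 0.119), limma-voom (0.42, 0.0519), a minimum fold of 1.2 (0.0776) and without the pancreas libraries (0.55, 0.0515). In RYGB against WM the difference was -0.68 ± 0.19 (adjusted p = 0.0716), which was not called.

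Xaf1, a gene linked to cell death, went the other way. It had 0.754, 1.06 and 1.77 CPM in RYGB livers, 0.346, 1.63 and 6.00 CPM in WM livers and 2.19, 2.71 and 4.37 CPM in Sham livers, and the RYGB and Sham ranges did not meet. The log2 fold change was -1.39 ± 0.40 in RYGB (edgeR adjusted p = 0.0108) and -0.64 ± 0.39 in WM (adjusted p = 0.212), or -1.17 ± 0.35 without WM 13 (adjusted p = 0.0115), and limma-voom (-1.19, 0.0103) and limma-trend (-1.02, 0.0375) called it lower in WM with all libraries. Tap1, which carries peptides for class I presentation, Rtp4, a receptor chaperone, and Trim30a, an E3 ligase family member, were not called by edgeR, with log2 fold changes of -0.45 to -0.03 in RYGB and 0.14 to 0.68 in WM, or -0.22 to 0.21 in WM without WM 13. Trim30a shares 19.9% of its 3′ words with Trim30d.

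Other genes of the pathway were taken from lists by role, 141 of which were tested. In RYGB against Sham 10 were higher and 14 lower, in WM against Sham 14 and 18 (8 and 26 without WM 13), and in RYGB against WM 2 and 0. Over all tested genes 12.7% were higher and 11% lower in RYGB, and 16.5% and 15% in WM (15.5% and 13.5% without WM 13). In RYGB against WM 1.06% were higher and 0.434% lower. The counts against Sham with all libraries were below these shares, and the 26 lower without WM 13 were above. The 5 receptor genes tested were not called in any comparison (edgeR; at an unadjusted p under 0.05, 1 was higher and 1 lower in RYGB against Sham and 1 lower in WM against Sham), and the 21 listed ligand genes were not analysed here. Ifnar1 had 4.27, 5.63 and 8.55 CPM in RYGB, 4.99, 7.51 and 11.7 CPM in WM and 6.97, 8.58 and 11.6 CPM in Sham livers, and Ifngr1 had 21.1, 24.9 and 34.0 CPM in RYGB, 14.1, 21.3 and 32.5 CPM in WM and 11.3, 18.0 and 33.4 CPM in Sham livers.

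Among the 13 tested genes of signal transduction, 2 were higher and 0 lower in RYGB against Sham, and 3 and 2 in WM. Over all tested genes 12.7% were higher and 11% lower in RYGB, and 16.5% and 15% in WM. The counts of 2 were near these shares. Irf5 and Irf3 rose in both RYGB and WM. Irf5, a factor of macrophage activation, had 5.33, 10.1 and 13.3 CPM in RYGB livers, 7.56, 11.2 and 18.9 CPM in WM livers and 0.996, 2.21 and 3.73 CPM in Sham livers, so that neither group overlapped Sham. Its log2 fold changes were 2.07 ± 0.25 in RYGB and 2.34 ± 0.25 in WM (edgeR adjusted p = 1.04e-06 and 9.73e-08). Irf3, the sensor-activated factor that starts interferon transcription, stood at 0.75 ± 0.23 in RYGB and 0.97 ± 0.23 in WM (adjusted p = 0.0157 and 0.00176). Irf2bp2, a corepressor, fell in WM (-1.42 ± 0.26, adjusted p = 0.000106), as did Stat3, and Irf2bp2 was higher in RYGB than in WM (1.08 ± 0.25, adjusted p = 0.0220). Socs3, a feedback inhibitor, stood at 1.37 ± 0.50 in WM (adjusted p = 0.0361, or 0.0525 without WM 13).

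Of 15 tested genes of innate sensing, 1 was higher and 1 lower in RYGB against Sham, and 1 and 3 in WM. The backgrounds were 12.7% higher and 11% lower in RYGB, and 16.5% and 15% in WM, so the RYGB counts were below them. Mavs, the mitochondrial adaptor of RNA sensors, was higher in both groups, with 0.77 ± 0.21 in RYGB and 0.71 ± 0.21 in WM (edgeR adjusted p = 0.00781 and 0.0100). Ddx58 (RIG-I), a sensor upstream of it, was lower in both, with -0.84 ± 0.24 in RYGB and -0.91 ± 0.24 in WM (adjusted p = 0.00977 and 0.00416). Traf3, a further adaptor, was lower in WM (-0.94 ± 0.22, adjusted p = 0.00200).

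Of 67 further interferon-induced genes, 2 were higher and 11 lower in RYGB, and 2 and 11 in WM, or 0 and 15 in WM without WM 13, beside backgrounds of 12.7% higher and 11% lower in RYGB, 16.5% and 15% in WM and 15.5% and 13.5% in WM without WM 13, so the WM count of 11 was near the background. Ifi27l2b had the largest fall, with 6.48, 10.6 and 18.2 CPM in RYGB livers, 0.553, 3.94 and 6.82 CPM in WM livers and 41.8, 59.9 and 70.2 CPM in Sham livers. Neither group reached the Sham range, with log2 fold changes of -2.36 ± 0.29 in RYGB and -3.86 ± 0.32 in WM (edgeR adjusted p = 1.54e-06 and 1.06e-09), and it was 1.4996 ± 0.29 in RYGB against WM (adjusted p = 0.00410). Eif2ak2, the kinase PKR that stops translation on double-stranded RNA, fell in both groups. Samd9l, an antiviral growth restrictor, stood at -1.25 ± 0.24 in RYGB and -1.05 ± 0.23 in WM (adjusted p = 0.000269 and 0.00104). Pnpt1, a mitochondrial RNA exonuclease, was lower in WM (-1.33 ± 0.26, adjusted p = 0.000292), and Lap3, an aminopeptidase, stood at 0.74 ± 0.16 in RYGB (adjusted p = 0.00129).

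Of 17 tested gamma-associated genes 2 were higher and 1 lower in RYGB, and 4 and 1 in WM, or 2 and 3 in WM without WM 13. The backgrounds were 12.7% higher and 11% lower in RYGB, 16.5% and 15% in WM, and 15.5% and 13.5% in WM without WM 13. The RYGB count of 2 higher was near its background, and the counts of 1 lower were below theirs. Ifi30, a lysosomal thiol reductase of antigen processing, stood at 1.11 ± 0.31 in RYGB and 1.19 ± 0.31 in WM (edgeR adjusted p = 0.00932 and 0.00410). Gbp2b stood at 1.89 ± 0.64 in RYGB and 2.37 ± 0.64 in WM (adjusted p = 0.0302 and 0.00569), and the chemokine Cxcl11 was lower in RYGB (-1.10 ± 0.33, adjusted p = 0.0152). Serpina3g, a protease inhibitor, stood at 1.99 ± 0.61 in WM (adjusted p = 0.0130) and at 0.57 ± 0.43 without WM 13 (adjusted p = 0.338).

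Of 18 genes of class I presentation 3 were higher and 1 lower in RYGB, and 4 and 1 in WM, or 3 and 2 in WM without WM 13. The same backgrounds apply: 12.7% higher and 11% lower in RYGB, 16.5% and 15% in WM, and 15.5% and 13.5% in WM without WM 13. Psmb10, an immunoproteasome subunit, and Psme2, part of the proteasome activator, stood at 0.71 ± 0.26 and 1.11 ± 0.27 in RYGB (edgeR adjusted p = 0.0462 and 0.00329) and at 1.32 ± 0.26 and 1.36 ± 0.27 in WM (adjusted p = 0.000326 and 0.000357). H2-Q7, which has close copies that may share its reads, stood at 1.11 ± 0.23 in RYGB and 1.11 ± 0.23 in WM (adjusted p = 0.000933 and 0.000658). Tap2, the partner of Tap1, was lower in RYGB (-0.98 ± 0.33, adjusted p = 0.0313). None of the 6 class II genes was called in RYGB or in WM (edgeR; at an unadjusted p under 0.05, 0 in RYGB and 1 higher in WM).

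Summed levels of immune cell markers were set beside these results. In WM 13 the summed level was 684 CPM for gamma-associated genes, 557 CPM for class II and 995 CPM for the 14 Kupffer markers, against at most 253, 295 and 620 CPM in the other 7 WM libraries. T and NK markers summed to 21.0 CPM in WM 13 and to 4.01 to 27.1 CPM in the other WM livers. Kupffer markers summed to 358 to 1156 CPM in RYGB, 419 to 995 CPM in WM and 185 to 580 CPM in Sham livers, with 11 of 14 higher in RYGB (12.7% of all tested genes) and 9 of 14 in WM (16.5%) against Sham, while 7 and 4 of the 10 antiviral effectors were lower. Of 12 tested markers of recruited macrophages and monocytes, 6 were lower and 1 higher in both RYGB and WM, with medians of -1.49 and -1.24, beside 11% of all tested genes lower in RYGB and 15% in WM. Without WM 13, 8 of the 14 Kupffer markers were higher in WM (background 15.5%). Of the recruited cell markers, 6 of 13 were then lower and 0 higher in WM (backgrounds 13.5% and 15.5%). The sum over the 13 counted markers was 61.9 to 238 CPM in RYGB, 52.9 to 219 CPM in WM and 80.7 to 322 CPM in Sham livers, with WM 13 at 219 CPM and the other WM livers at 182 CPM or less.

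The plasmacytoid dendritic cell list, a cell type that makes much interferon, summed to 48.8 to 115 CPM in RYGB, 39.4 to 110 CPM in WM and 221 to 442 CPM in Sham livers. Most of that gap was Ly6d, at 4.73 ± 4.44 CPM in RYGB, 6.05 ± 5.41 CPM in WM and 216 ± 82.3 CPM in Sham livers (SD, n = 8 each), and the defining marker Siglech averaged 0.627 ± 0.473 CPM in RYGB, 0.675 ± 0.567 CPM in WM and 1.10 ± 0.684 CPM in Sham livers. All 5 tested markers of the list were below 0 against Sham, with median log2 fold changes of -0.89 in RYGB and -0.996 in WM. Of these 5, 3 (Bcl11a, Ly6d and Tcf4) were called lower in both RYGB and WM, beside 11% and 15% of all tested genes. Without WM 13, 2 were lower in WM, Ly6d and Tcf4 (background 13.5%). In these bulk samples fewer cells of a type and less RNA per cell cannot be told apart, and the part of any cell type in the interferon results was not tested.

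**Figure D4:**
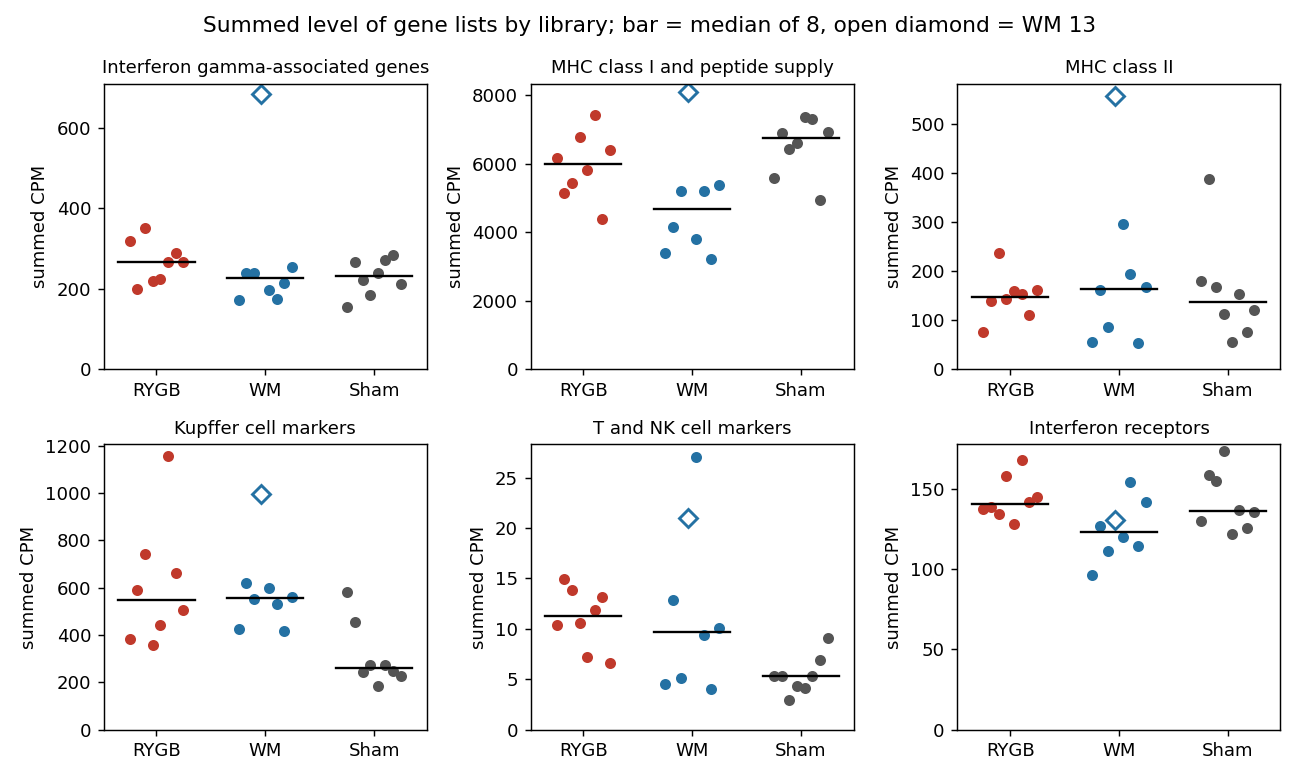
Summed CPM (y axis, from 0) of 6 gene lists in the RYGB, WM and Sham libraries (x axis); each point is a library, bars are medians of 8 and open diamonds mark WM 13. WM 13 is the highest point for gamma-associated genes (684 CPM), class I (8097 CPM) and class II (557 CPM), while its receptor sum (131 CPM) lies within the range of the other WM libraries (96.3 to 155 CPM).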

How the data were processed

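Messenger RNA of 24 livers, 8 in each of the RYGB, WM and Sham groups as the labels name them, was read with the QuantSeq 3′ kit for 50 bp, per the labels' protocols. The authors deposited raw counts of reads per Ensembl gene and, as a second table, a normalized signal, each count divided by 1 size factor per library. Among the tools listed are DESeq2 1.34 and R 4.1.2, per the submitters' processing notes, and DESeq2's median-of-ratios factors recomputed from the counts gave the same signal. The aligner, the counter and the genome build were not given in the sources used here. Library totals were 13659647 to 22766612 counts, and the lowest mean count of a gene in the table is 3.

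Counts were tested in R 4.3.3 with edgeR 4.0.16 (filterByExpr, TMM, quasi-likelihood F-test, 1 fit of all 24 libraries without covariates, Benjamini-Hochberg over 13121 genes, calls at an adjusted p under 0.05). The standard error is the absolute log2 fold change over the square root of F. Alternatives were RLE scaling, library totals, DESeq2 1.42.0, limma-voom and limma-trend (limma 3.58.1; trend on the deposited normalized signal plus a pseudocount of 1), no filter, a filter of 1 CPM in 8 libraries, only the 2 groups compared, a minimum fold of 1.2, no libraries with pancreas transcripts, a GC and length correction (mgcv 1.9.3) and each library left out. The limma-voom fit used a quality weight for each library, so libraries did not count equally in it. List counts without WM 13 were chosen after seeing the data. Tests were tried on simulated data. Between libraries of the same group, chi-square over its degrees of freedom was 26.4 to 578, and none was a duplicate. The labels do not say how many mice stand behind the libraries, so p-values measure the spread between these samples.

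Gene positions come from GENCODE M21 (GRCm38) and promoters from RefSeq. The members and lists were chosen with earlier results of these data known. Named were all members, with full values for those called in any comparison and for Stat2, Irf1, Irf7 and Irf9; of the pathway lists, the 3 called genes of smallest p per role and comparison, and receptors. 1 item of the rule is not reported here. Ifit3, Gbp2, Gbp7, Isg15, Usp18, Iigp1, Cmpk2, Socs3 and the marker genes were given values after these were seen.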

Additional observations from a re-analysis of the deposited data

Results flagged for a closer look

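Within each group of 8 libraries, the gap between the highest or lowest library and its neighbour was divided by the group's range of CPM for the 35 tested genes, 105 groups in all. A ratio above 0.526 was taken as a library far from the others. By chance that line marks about 1 in 20 groups of normally distributed values. CPM was not put on a log scale and the genes move together, so that rate need not hold here. WM 13 was the highest WM library by this measure for 25 genes.

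Among the antiviral effectors the ratio for WM 13 was 0.783 for Ifi44, 0.743 for Rsad2, 0.714 for Ifit1, 0.85 for Ifit3, 0.843 for Ifit3b, 0.669 for Oasl2 and 0.682 for Bst2. Among the factors, modifiers and sensors it was 0.662 for Irf1, 0.927 for Irf7, 0.922 for Isg15, 0.822 for Usp18, 0.611 for Parp14 and 0.897 for Zbp1. For the guanylate-binding proteins it was 0.834 for Gbp2, 0.882 for Gbp3 and 0.862 for Gbp7. For the immunity-related GTPases it was 0.918 for Igtp, 0.798 for Irgm1, 0.547 for Irgm2, 0.807 for Iigp1 and 0.922 for Ifi47. For the other genes it was 0.687 for Xaf1, 0.793 for Tap1, 0.865 for Rtp4 and 0.77 for Trim30a.

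The other 5 cases were spread over 3 libraries of RYGB and Sham. RYGB 11 was the highest RYGB library for Oasl2 (ratio 0.609, 2.48 CPM) and Ifih1 (0.555, 43.8 CPM), and RYGB 10 the lowest for Zbp1 (0.633, 0.485 CPM). Sham 3 was the lowest Sham library for Isg15 (0.614, 8.56 CPM) and the highest for Gbp2 (0.684, 8.69 CPM).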

How the results depend on the processing

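With all 24 libraries 8 members were lower in RYGB against Sham; the count was 19 with library totals, 15 with limma-voom and 15 with only the 2 groups compared, while calls in either direction over all genes went to 4288, 5018 and 3532 beside 3109. In WM against Sham 4 were lower, and 8 with library totals, 9 with limma-voom and 7 with limma-trend; 6 were higher, and 2 with library totals, 3 with DESeq2, 2 with limma-voom and 2 with limma-trend, with 4686, 4645, 5357 and 4350 calls over all genes for library totals, DESeq2, limma-voom and limma-trend beside 4125. The WM against Sham median of 0.30 became -0.24 with DESeq2 and -0.25 with limma-trend. DESeq2 replaced the count of WM 13 for 6 members as an outlier. In RYGB against WM 2 were lower, and 0 with limma-voom, with limma-trend, with only the 2 groups compared and without the pancreas libraries, and 1 with a minimum fold of 1.2, with 287, 225, 121, 194 and 123 calls over all genes in that order beside 196. Scaling by library totals moved the median of all genes to -0.36 in RYGB and -0.33 in WM against Sham. All the all-gene calls given here by setting are totals of both directions. The share of all genes called lower or higher is not given for each setting. A change in the members is therefore not separated here from a shift of all genes.

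Leaving out 1 library at a time gave 7 to 13 lower members in RYGB against Sham, 4 to 12 lower and 2 to 8 higher in WM against Sham, and 0 to 3 lower in RYGB against WM. Calls over all genes in either direction ranged over 2648 to 3514, 3645 to 4299 and 136 to 257 in these 3 comparisons. Without WM 13, 13 members were lower in RYGB and 12 in WM against Sham, beside 10.9% and 13.5% of all tested genes. The medians of the members ranged from -0.43 to -0.30 in RYGB against Sham, -0.40 to 0.37 in WM against Sham and -0.85 to -0.055 in RYGB against WM, with -0.40 and -0.055 being the values without WM 13.

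Single genes were followed under every setting for 39 pairs of a gene and a comparison. Among these, signs turned, none of them called unless stated, for Stat2 in RYGB against Sham (-0.24 with library totals, -0.10 with the GC and length correction), Irf1 in RYGB against Sham (-0.12 and -0.00171 with the same settings), Parp14 in WM against Sham (0.12 with the GC and length correction), Ifi47 in WM against Sham (-0.020 without WM 13, leaving out 1 library gave up to 1.499) and Irf7 in WM against Sham (-0.17 with library totals, -0.37 with limma-voom, -0.25 with limma-trend, -0.16 with the GC and length correction and, called, -0.63 without WM 13, where leaving out 1 library gave up to 0.24). Without WM 13 the WM against Sham signs of Ifit3b (-0.34), Isg15 (-0.27), Gbp2 (-0.83), Gbp3 (-0.017), Gbp7 (-0.48), Irgm1 (-0.33), Rtp4 (-0.027) and Trim30a (-0.22) also turned, none of them called. The cause was not tested. No paired analysis was possible because no replicate number is shared between groups. Genes under about 1 CPM rest on few reads, so small differences in them were not detectable at this depth.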
